A study of Mus musculus with 6 samples.

Results

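The genes of the interleukin-1 family of ligands, receptors and natural inhibitors were described in cultured mouse heart cells profiled on 6 Affymetrix arrays. The members were 10 named genes (Il1a, Il1b, Il1rn, Il1r1, Il1r2, Il1rap, Il1rl1, Il33, Il18 and Il18bp), each represented by the probe set carrying its symbol in the platform's probe annotation. Of these, 9 had a probe set, 1 each, out of 19505 genes on the array. Il1rl1, the receptor of interleukin-33, had none in that annotation and was not analysed here. The cultures were cardiac fibroblasts (CF), which make the heart's matrix, and cardiomyocytes (CM), its beating muscle cells. Each was exposed for 48 h to the secretome of Ccrl2+ macrophages, to that of Ccrl2- macrophages, or to phosphate-buffered saline (PBS). The PBS arrays carry Sham in their titles. The labels give C57BL/6N as genotype and an age of 15 to 16 weeks for all 6 groups. Both macrophage populations came from 6 wild-type hearts mixed before sorting, 1 week after TAC (transverse aortic constriction, an operation that loads the left ventricle with pressure), so each secretome stands for a pool of animals. The protocols speak of co-culture with the macrophages themselves, and the source labels, which were followed, name the secretome. Every group had 1 array. No difference below therefore has a replicate check, no test was possible and no p-value is given.

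Interleukin-1 alpha and interleukin-1 beta, the products of Il1a and Il1b, are inflammatory cytokines that bind the receptor encoded by Il1r1, which signals only after the accessory chain encoded by Il1rap has joined it. The antagonist encoded by Il1rn occupies the same receptor without signalling, and the decoy receptor encoded by Il1r2 binds the cytokines without passing a signal on. Interleukin-33 and interleukin-18 are related alarm cytokines, and Il18bp encodes a secreted protein that neutralises interleukin-18. In the injured heart the pathway is known for driving inflammatory gene expression in fibroblasts and other stromal cells.

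Values are log2 probe set summaries, so a difference of 1 is 2-fold. Calls required a difference of 2-fold between the arrays of a pair, with the brighter one at or above 6.55. This floor is the median value of the named probe sets. If the dimmer array fell short of it, a lower bound is given as well, computed with that value raised to the floor. The negative control probe sets are a further scale for faint signals, and their 95th percentile lay between 10.2 and 10.74 on the 6 arrays. Their median lay between 6.2 and 6.71, close to the floor, so a value past the floor need not be a detected transcript. The lower bounds are likewise bounds relative to this floor only. Pairs of CM arrays correlated at 0.995 to 0.996 and pairs of CF arrays at 0.973 to 0.986, as a description over genes. The marker genes followed the culture labels: in PBS, CF exceeded CM by 2-fold or more in all 7 fibroblast markers past the floor and lay below it as far in all 8 cardiomyocyte markers. The CF arrays also carried cardiomyocyte transcripts, with 7 of 8 markers past the floor on each.

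The ligand genes Il1a and Il1b and the antagonist gene Il1rn reached the floor on a single array, that of fibroblasts with the Ccrl2- secretome. Their promoter windows are shown because these 3 genes shared that pattern. The sequences are from RefSeq on GRCm38.p6 and run 5′ to 3′ along the gene, from 250 bases before the annotated start site into its first 50. Capitals mark matches on either strand to any of 5 motifs searched. These were the AP-1 motif TGACTCA, the C/EBP type motif TTNNGCAAT, an NF-kB type motif with 2 free bases, an NF-kB type motif with none, and a palindromic motif of the glucocorticoid response element type. Il1a lies on the minus strand at chr2:129309923-129310222, and Il1b, the next protein-coding gene, on the minus strand at chr2:129371090-129371389. Il1rn is elsewhere on the same chromosome, on the plus strand, with windows at chr2:24336610-24336909 and chr2:24345121-24345420 shown here, and a further window overlaps the second of them.
Il1a: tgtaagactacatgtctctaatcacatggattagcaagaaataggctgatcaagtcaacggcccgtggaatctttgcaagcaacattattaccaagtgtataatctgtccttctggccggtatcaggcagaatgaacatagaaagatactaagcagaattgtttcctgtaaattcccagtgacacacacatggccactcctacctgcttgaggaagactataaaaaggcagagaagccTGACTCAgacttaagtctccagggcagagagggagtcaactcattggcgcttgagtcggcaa
Il1b: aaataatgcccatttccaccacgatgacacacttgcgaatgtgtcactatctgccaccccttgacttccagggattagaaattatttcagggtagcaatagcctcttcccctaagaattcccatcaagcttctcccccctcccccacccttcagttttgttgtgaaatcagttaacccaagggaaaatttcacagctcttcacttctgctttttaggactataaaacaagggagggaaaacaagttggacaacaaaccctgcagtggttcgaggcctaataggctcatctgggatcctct
Il1rn, upstream start: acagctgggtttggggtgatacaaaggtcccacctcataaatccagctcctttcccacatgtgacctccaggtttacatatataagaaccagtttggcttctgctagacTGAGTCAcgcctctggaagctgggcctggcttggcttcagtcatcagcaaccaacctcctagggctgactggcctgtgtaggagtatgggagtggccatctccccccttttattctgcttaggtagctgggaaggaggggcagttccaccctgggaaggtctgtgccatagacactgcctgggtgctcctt
Il1rn, downstream start: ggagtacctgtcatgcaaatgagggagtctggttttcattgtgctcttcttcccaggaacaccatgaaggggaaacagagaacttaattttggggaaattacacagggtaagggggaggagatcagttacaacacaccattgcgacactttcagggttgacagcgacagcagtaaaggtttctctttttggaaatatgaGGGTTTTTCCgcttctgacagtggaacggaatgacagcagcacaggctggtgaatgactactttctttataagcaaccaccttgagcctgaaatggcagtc
Il1a held the AP-1 motif 12 bases before the start site. In Il1rn the AP-1 motif, read on the other strand, began 141 bases before the upstream start. The NF-kB type motif with free bases matched from 51 bases before the downstream start. In the overlapping window, which is not shown, the same match lay past that window's own start site. AP-1 letters occur in 5.2% of the 32851 windows of this length in the table and this NF-kB type motif in 1.63%. The Il1b window held none of the 5 motifs, and neither did those of Il1r1, Il1r2, Il1rap, Il33, Il18 and Il18bp. These are matches of letters, and the files hold no binding data. The C/EBP type motif, the fixed NF-kB type motif and the glucocorticoid type motif, found in 2.18%, 0.0883% and 0.475% of all windows, matched in no window of a member.

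**Figure D1:**
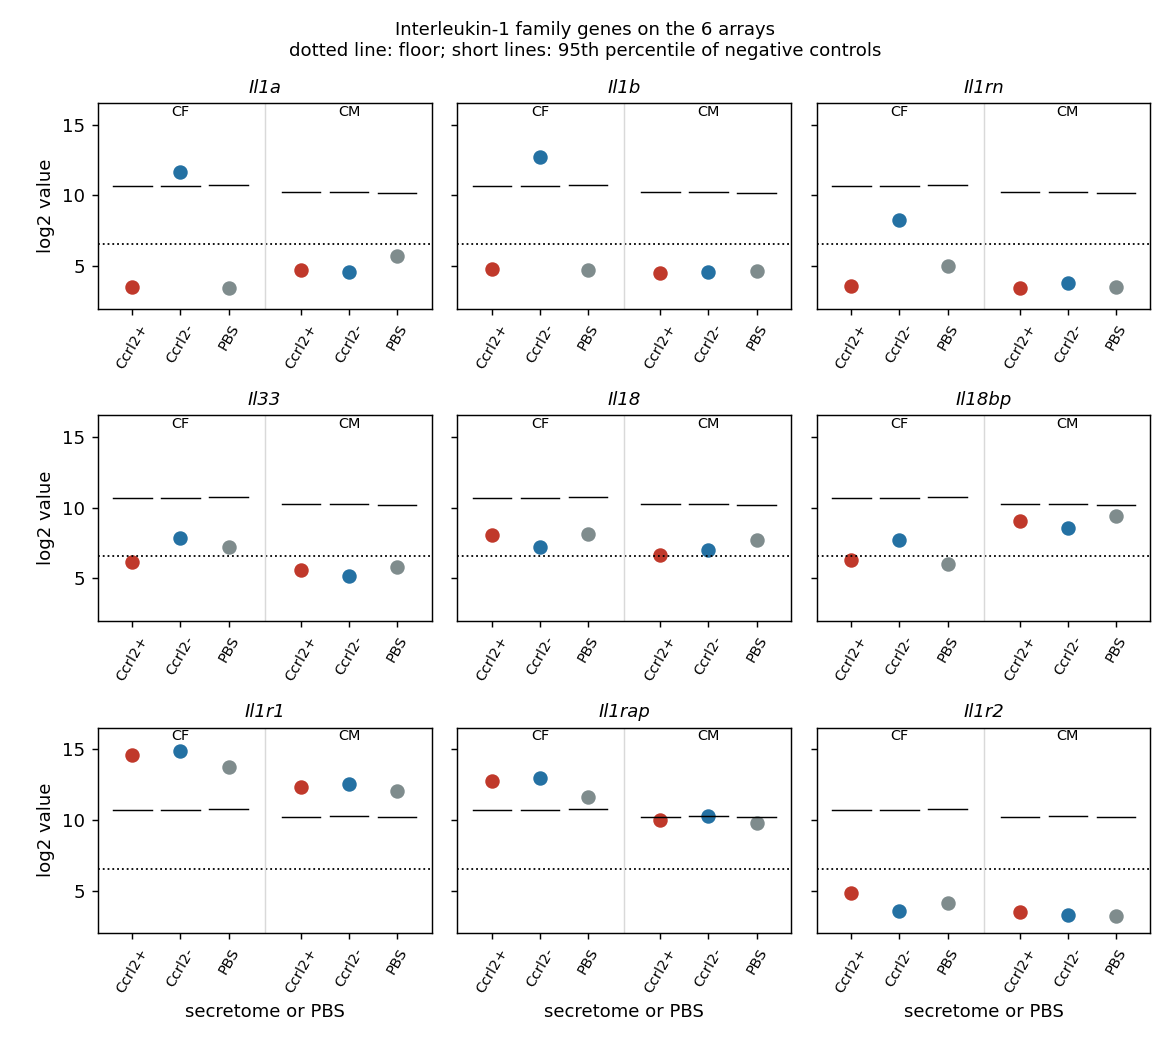
Log2 value of 9 interleukin-1 family genes (1 panel each) on the arrays of CF and CM with Ccrl2+ secretome, Ccrl2- secretome or PBS, 1 point per array. The dotted line is the floor of 6.55 and the short lines are the 95th percentile of negative controls on each array; Il1a and Il1b pass both on the CF Ccrl2- array alone, while Il1r1 passes both on all 6.

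The fibroblast culture with the Ccrl2- secretome carried high transcript levels of both interleukin-1 ligands. Il1b lay at 4.78 in CF with the Ccrl2+ secretome and 12.72 with the Ccrl2- secretome, against 4.73 in PBS. Il1a lay at 3.56 in CF with the Ccrl2+ secretome and 11.68 with the Ccrl2- secretome, against 3.46 in PBS. On the 3 CM arrays Il1b ran from 4.54 to 4.68 and Il1a from 4.57 to 5.7, so 5 of the 6 arrays were below the floor for both genes. With the Ccrl2- secretome Il1b was at least 6.17 log2 units, or 72-fold, above PBS in CF. Il1a was at least 5.13 units, or 35-fold, above it. Both values on that array also exceeded 10.69, its 95th percentile of negative controls.

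The antagonist gene Il1rn followed on the same array at a fainter signal. It lay at 3.61 in CF with the Ccrl2+ secretome and 8.28 with the Ccrl2- secretome, against 5.01 in PBS, and at 3.49 to 3.83 in CM. The difference from PBS was at least 1.73 units, or 3.32-fold. Unlike the ligands, its highest value did not exceed the negative controls' 95th percentile. The probe set does not separate the secreted antagonist from its intracellular forms.

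Counted over the family, 6 of the 8 members past the floor were higher by 2-fold or more in CF with the Ccrl2- secretome than in PBS and 0 were lower. Over all genes 6.18% were higher and 4.83% lower in that comparison. The 6 were Il1a, Il1b, Il1rn, Il1r1, Il1rap and Il18bp. Of them, 4 (Il1a, Il1b, Il1rn and Il18bp) passed the floor only through that array, so their direction was fixed by the floor rule. With their PBS values raised to the floor these 4 differed by 5.13, 6.17, 1.73 and 1.17 units. The members' median difference was 1.51, against -0.09 over all genes past the floor. The members' median uses those 4 PBS values as deposited, below the floor, so its size is not measured. Among negative controls past the floor, 13.1% differed by 2-fold between the same arrays.

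The signalling receptor chains had another pattern. Il1r1 was far above the floor on all arrays, at 14.59 in CF with the Ccrl2+ secretome and 14.85 with the Ccrl2- secretome, against 13.74 in PBS. In CM it lay at 12.29 with the Ccrl2+ secretome and 12.53 with the Ccrl2- secretome, against 12.05 in PBS. Both secretome arrays were thus above the PBS array in each cell type, with differences of 0.85 and 1.11 in CF and 0.24 and 0.48 in CM for Ccrl2+ and Ccrl2-. Only the value of 1.11, 2.16-fold, reached the threshold.

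Il1rap, the accessory chain shared by the interleukin-1, interleukin-33 and interleukin-36 receptors, gave the same order of arrays. It lay at 12.74 in CF with the Ccrl2+ secretome and at 12.91 with the Ccrl2- secretome, against 11.61 in PBS. In CM it lay at 9.99 with the Ccrl2+ secretome and at 10.25 with the Ccrl2- secretome, against 9.74 in PBS. Of its 6 values, 4 exceeded the 95th percentile of the negative controls, namely all 3 in CF and the Ccrl2- value in CM, at 10.25 barely past that array's percentile of 10.249. The CF differences from PBS were 1.13 (2.19-fold) with Ccrl2+ and 1.3 (2.46-fold) with Ccrl2-, and the CM differences were 0.25 and 0.51. The comparisons with PBS share the PBS array of their cell type. Between the secretomes the CF difference of Ccrl2+ over Ccrl2- was -0.26 for Il1r1 and -0.17 for Il1rap, and the fibroblast arrays with Ccrl2+ and Ccrl2- secretome, which differed by at least 5.13 units in ligand transcripts, differed little in these receptor transcripts. The probe set does not tell the membrane form of the accessory chain from its soluble form. In CM with the Ccrl2- secretome 4 of 7 fibroblast markers past the floor were also higher than in PBS by 2-fold or more, with a median of 1.17 (3 and 0.97 with values raised to the floor), where 1.53% of all genes differed as much, among them Col3a1 at 10.93 against 8.78. Their part in the Il1r1 and Il1rap values of CM was not tested.

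The decoy receptor gene Il1r2 reached the floor nowhere. Its values were 4.85 in CF with the Ccrl2+ secretome and 3.55 with the Ccrl2- secretome, against 4.14 in PBS, and 3.21 to 3.46 in CM. No fold is given because every value lay below the floor. Il1r2 opens a run of neighbouring receptor genes on chromosome 1, followed in order by Il1r1, Il1rl2, Il1rl1, Il18r1 and Il18rap. In that run Il1r1 and Il1rl2, which encodes the interleukin-36 receptor, were above the floor on all 6 arrays. Il1rl2 lay at 10.29 in CF with the Ccrl2+ secretome and 11.7 with the Ccrl2- secretome, against 10.62 in PBS, a difference of 1.08 for Ccrl2- over PBS. In CM it stayed between 8.43 and 8.49. Only its value in CF with the Ccrl2- secretome exceeded the array's 95th percentile of negative controls, while Il1r1 exceeded it on all 6 arrays. Il18r1 and Il18rap, the chains of the interleukin-18 receptor, were below the floor on every array, with highest values of 5.19 and 5.94, both in CF with the Ccrl2- secretome.

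**Figure D2:**
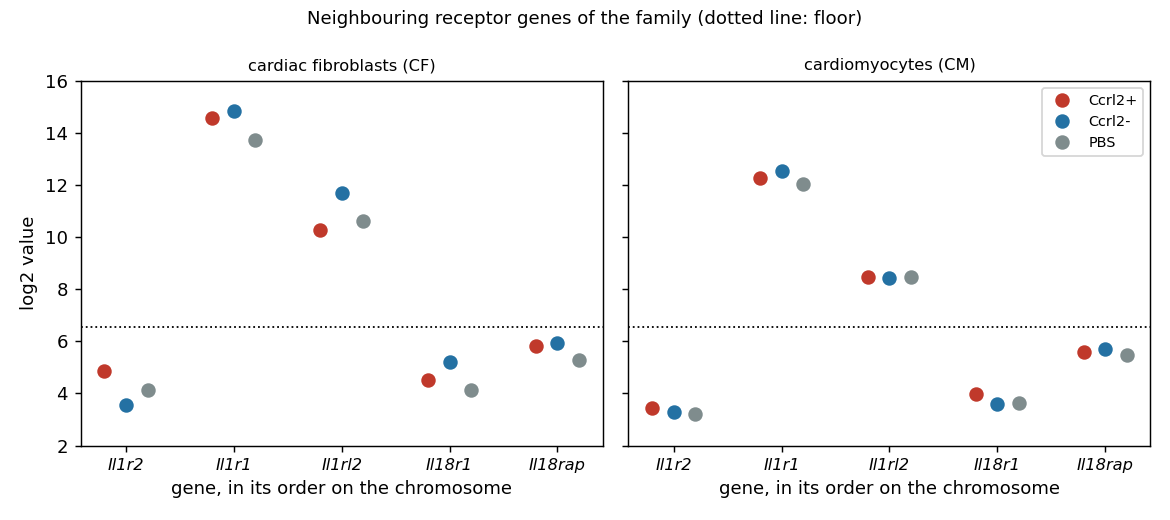
Log2 value of neighbouring receptor genes in their chromosomal order, in CF (left) and CM (right), 1 point per array and Ccrl2+, Ccrl2- and PBS from left to right. Il1r1 and Il1rl2 lie above the dotted floor of 6.55 on all arrays and Il1r2, Il18r1 and Il18rap below it; Il1rl1, between Il1rl2 and Il18r1, was not analysed.

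The alarm cytokine genes Il33 and Il18 were faint in these cultures, and none of their values reached the 95th percentile of the negative controls. Il33 lay at 6.15 in CF with the Ccrl2+ secretome and 7.85 with the Ccrl2- secretome, against 7.21 in PBS, and between 5.18 and 5.78 in CM. The Ccrl2+ array was the only CF array below the floor. Its difference from PBS was -1.06, which is only -0.66 when its value is raised to the floor, and it was at least 1.3 units, or 2.46-fold, lower than the Ccrl2- array.

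Il18 was above the floor on all arrays, with no array standing apart. It lay at 8.08 in CF with the Ccrl2+ secretome and 7.25 with the Ccrl2- secretome, against 8.1 in PBS. In CM it lay at 6.67 with the Ccrl2+ secretome and 7.03 with the Ccrl2- secretome, against 7.71 in PBS. The CM difference of -1.04 for Ccrl2+ over PBS, 2.06-fold in size, was the single member called in the CM comparisons. Of all genes past the floor in that comparison 0.629% were at least 2-fold lower and 0.21% higher. Macrophage and monocyte markers moved on the same array: 6 of 9 past the floor were lower by 2-fold or more in CM with the Ccrl2+ secretome than in PBS, with a median of -1.02. C1qb, a complement gene of tissue macrophages, lay at 10.9 against 12.25, and Mrc1, a macrophage mannose receptor gene, at 11.76 against 12.92. Their part in the Il18 value was not tested. In bulk cultures fewer cells of a type and less RNA per cell cannot be told apart.

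Il18bp was the one member with its highest values in CM. It lay at 9.04 in CM with the Ccrl2+ secretome and 8.53 with the Ccrl2- secretome, against 9.4 in PBS. In CF it lay at 6.3 with the Ccrl2+ secretome and 7.72 with the Ccrl2- secretome, against 6 in PBS. The Ccrl2- array was thus the highest of the CF arrays and the lowest of the CM arrays. In CF the difference of Ccrl2- over PBS was at least 1.17 units, or 2.25-fold, and in CM it was -0.87, short of 2-fold.

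The secretomes were also compared directly. In CF, 5 of 8 members past the floor were lower by 2-fold or more with the Ccrl2+ than with the Ccrl2- secretome and 0 were higher, where 10.1% of all genes were lower and 8.55% higher and 19% of negative controls past the floor differed as much. These were Il1a, Il1b, Il1rn, Il33 and Il18bp, lower by at least 5.13, 6.17, 1.73, 1.3 and 1.17 units. All 5 lay below the floor with Ccrl2+ and passed it only through the Ccrl2- array, so their direction was fixed by the floor rule. Markers of other cells moved between the same arrays: all 7 cardiomyocyte markers past the floor were higher with Ccrl2+ by 2-fold or more, with a median of 1.48, and of 10 macrophage and monocyte markers 4 were higher (C1qa, C1qb, C1qc and Mrc1, by 2.29 to 2.96) and 2 lower. Their part in the member values was not tested. Against PBS, 1 of 4 members past the floor in CF with the Ccrl2+ secretome was higher (Il1rap) and 1 lower (Il33), against 4.87% and 6.13% of all genes, while 19.7% of negative controls past the floor differed as much. In CM, 0 of 4 members past the floor differed by 2-fold between the secretomes, and 0 of 4 between the Ccrl2- secretome and PBS. The share of all genes that did was 0.31% between the secretomes and 1.53% for Ccrl2- over PBS.

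**Figure D3:**
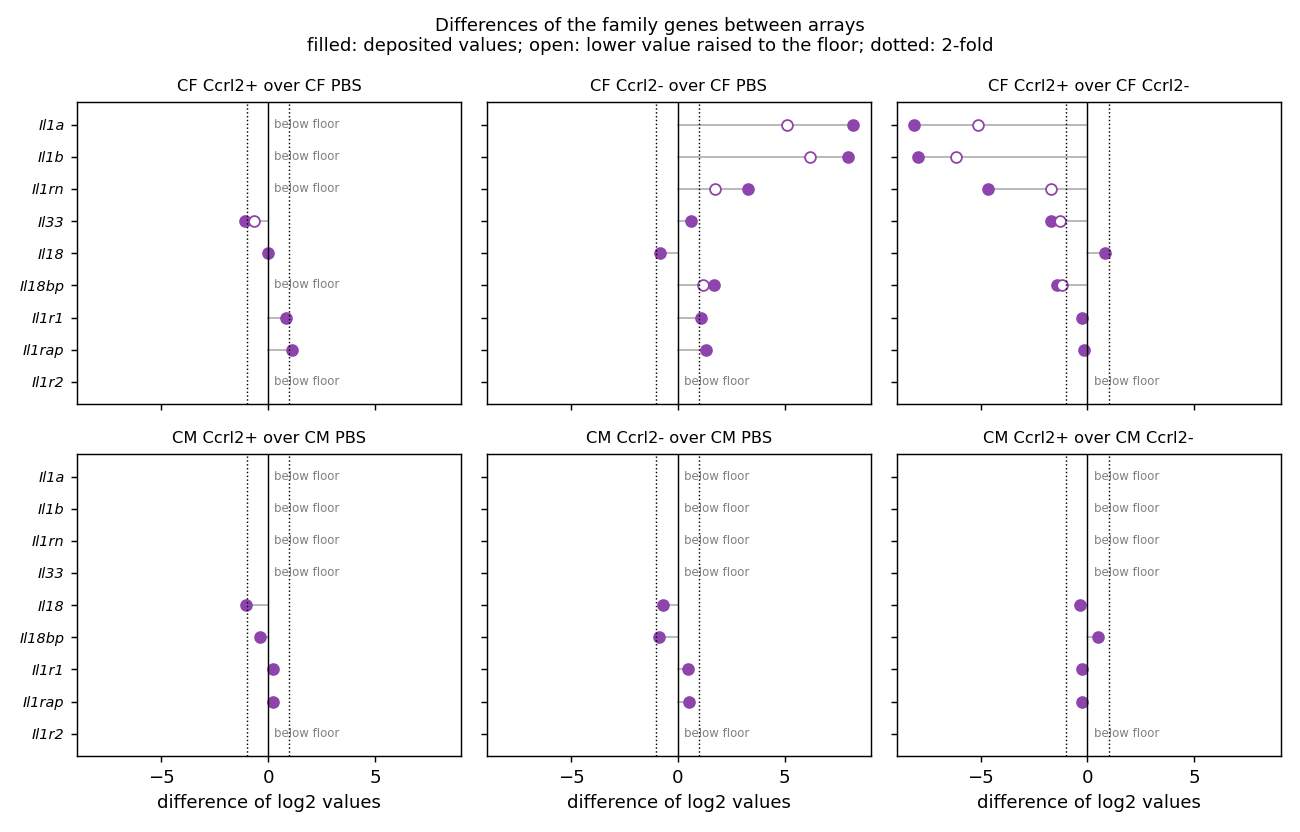
Difference of log2 values for each family gene (rows) in 6 comparisons (panels); filled points use the deposited values, open points the lower value raised to the floor, and the dotted lines mark 2-fold. Il1a and Il1b are at least 5.13 and 6.17 units higher in CF with the Ccrl2- secretome than in PBS, and all CM differences past the floor lie between -1.04 and 0.51.

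In PBS the fibroblast culture carried more receptor transcript than the cardiomyocyte culture. Il1r1 lay at 13.74 in CF and 12.05 in CM, 3.23-fold higher, and Il1rap at 11.61 and 9.74, 3.66-fold higher. Il18bp was at least 2.85 units, or 7.21-fold, lower in CF. In all, 3 of 5 members past the floor were higher by 2-fold or more in CF and 1 was lower, where 13.9% of all genes were higher and 16.9% lower and 30.6% of negative controls past the floor differed as much. Il33, the other of the 3, differed by 1.43, or by 0.66 with the CM value raised to the floor. The CM culture also carried endothelial transcripts, with all 8 markers past the floor and a summed level (log2 of the sum of linear values) of 17.31 in PBS, against 12.58 in CF. Their part in the Il18bp and Il1r1 values was not tested.

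Genes that act in the pathway were counted from lists chosen for this purpose, all with earlier results of these arrays known. Of 13 signalling genes on the array, all past the floor, 4 were higher by 2-fold or more in CF with the Ccrl2- secretome than in PBS and 0 lower, with a median of 0.38, where 6.18% of all genes were higher and 4.83% lower. They were Irak3, which encodes an inhibitor of the receptor complex, at 13.87 against 11.62, the kinase gene Map3k8 at 10.83 against 8.69, the adaptor gene Myd88 at 11.37 against 10.25, and the kinase gene Irak2 at 8.07 against 7.02. With the Ccrl2+ secretome Irak3 alone was called, at 12.63 against 11.62, a difference of 1.01 just past the threshold. The list's median was 0.08, where 4.87% of all genes were higher and 6.13% lower. The other genes of the list on the array differed by less than 2-fold in both comparisons. Rela, the one NF-kB subunit gene among them, came closest with Ccrl2-, at 15.08 against 14.14. The list held 17 genes, and Irak1, Irak4, Chuk and Nfkb1 had no probe set under these symbols.

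Interleukin-1 beta leaves cells after its precursor has been cut by caspases and the membrane has opened. Of 10 genes for maturation and release past the floor, 3 were higher by 2-fold or more with the Ccrl2- secretome than in PBS in CF and 0 lower. Their median was 0.36, where 6.18% of all genes were higher and 4.83% lower. The inflammatory caspase gene Casp4 lay at 13.54 against 10.38, and Ninj1, which acts in membrane rupture of dying cells, at 14.44 against 13.07. Nlrp3, an inflammasome sensor gene, lay at 8.1 against 5.52, at least 1.55 higher, and passed the floor only through the Ccrl2- array. Casp1, whose product cleaves the interleukin-1 beta and interleukin-18 precursors, lay at 6.94 against 7.02, close to the floor. Pycard, the inflammasome adaptor gene, was below the floor on all arrays, at 5.24 against 5.54. In CM with the Ccrl2+ secretome Casp1 lay at 6.6, just past the floor, against 7.8 in PBS. It was the 1 gene called of 9 past the floor there, where 0.629% of all genes were lower and 0.21% higher. The transcripts say nothing of cleaved or secreted protein.

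Genes that interleukin-1 is known to induce in other systems were counted on the same arrays. Of 26 on the array, 25 were past the floor and all 25 were higher by 2-fold or more in CF with the Ccrl2- secretome than in PBS, with a median of 5.68, where 6.18% of all genes were higher. Of the 25, 10 lay below the floor in PBS and passed it only through the Ccrl2- array, so their direction was fixed by the floor rule. With their PBS values raised to the floor all 25 stayed at 2-fold or more. Many of these genes also respond to other NF-kB activators, so the count is not particular to interleukin-1. Csf2, the gene of a myeloid growth factor, was the one member of the list below the floor. The widest differences were those of Lcn2, the gene of an iron-siderophore binding protein, at 17.28 against 3.85 (at least 10.73 higher), and the chemokine gene Cxcl5, at 16.56 against 4.86 (at least 10.01 higher). Among genes past the floor in PBS as well, Il6 lay at 13.67 against 8.79, and the prostaglandin synthesis gene Ptgs2 at 11.87 against 6.73. With the Ccrl2+ secretome 16 were past the floor, 1 higher and 2 lower than in PBS, with a median of 0.36, against 4.87% and 6.13% of all genes. All 3 had a value below the floor, and raising it left 1 higher and 1 lower. Il6 lay at 6.03 with Ccrl2+ against 8.79 in PBS, at least 2.24 lower, and Lcn2 at 10.96 against 3.85, at least 4.41 higher. In CM 0 of 13 target genes past the floor differed by 2-fold with either secretome. Few genes of the array did: 0.21% were higher and 0.629% lower with Ccrl2+, and 1.53% differed with Ccrl2-. Some targets were already high in CM with PBS, such as Lcn2 at 15.76 and Icam1 at 11.71. Of 16 targets past the floor in PBS, 6 were at least 2-fold lower in CF than in CM and 2 higher, against 16.9% and 13.9% of all genes.

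**Figure D4:**
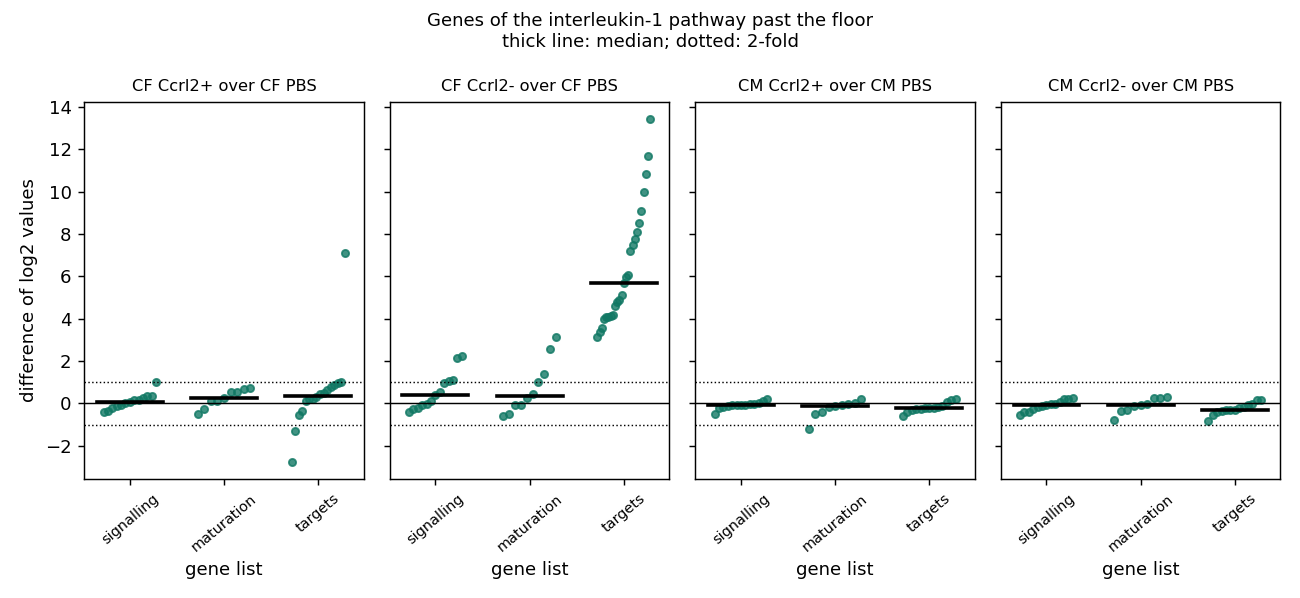
Difference of log2 values over PBS for genes past the floor in 3 lists (signalling, maturation and release, target genes), 1 point per gene, for both secretomes in CF and CM; the thick line is the list's median. The target genes in CF with the Ccrl2- secretome lie at 2-fold or more without exception and have a median of 5.68, while the medians of all other panels and lists stay between -0.3 and 0.38.

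Glucocorticoids are known to repress interleukin-1 genes and to induce Il1r2, so their target genes were read beside the ligand values. In CF with the Ccrl2+ secretome 8 of 10 were at least 2-fold higher than in PBS and 0 lower, with a median of 2.67, where 4.87% of all genes were higher and 6.13% lower. Zbtb16, a zinc finger factor gene, lay at 13.44 in CF with Ccrl2+ and 6.05 with Ccrl2-, against 6.35 in PBS, so it was at least 6.89 above PBS with Ccrl2+. Fkbp5, a co-chaperone gene of the glucocorticoid receptor, lay at 15.15 in CF with Ccrl2+ and 11 with Ccrl2-, against 10.24 in PBS, and between 14.72 and 14.94 in CM. With the Ccrl2- secretome 3 of 9 were higher in CF and 1 lower, where 6.18% and 4.83% of all genes were. Nfkbia, one of the 3, stands in the interleukin-1 target list as well. The others, Mt2 and Cebpd, were also among the 8 called with Ccrl2+ and lay higher with Ccrl2-. Mt2 lay at 17.27 in CF with Ccrl2+ and 17.85 with Ccrl2-, against 14.63 in PBS, and Cebpd at 12.29 and 13.42, against 10.77. The arrays do not record which additives each culture medium held, and the part of such compounds in the ligand values was not tested.

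Leukocytes are a known source of interleukin-1 transcripts, so their markers were read beside the ligand values. Of 11 macrophage and monocyte markers on the array, 10 were past the floor on each CF array. Their summed level was 15.22 in CF with Ccrl2+ and 14.63 with Ccrl2-, against 14.6 in PBS, and 13.79 to 14.77 in CM. In CF with Ccrl2- over PBS 3 were at least 2-fold higher and 5 lower, against 6.18% and 4.83% of all genes, so the sum joins markers that moved both ways. Cd14, an endotoxin co-receptor gene, lay at 11.3 against 8.54, and C1qa at 9.42 against 11.22. Ccr2, a receptor gene of recruited monocytes, was below the floor on all arrays, with a highest value of 3.75. All 7 neutrophil markers on the array, among them S100a8 and S100a9, were below the floor on all 6 arrays. Of 8 mast cell markers, 6 were below the floor on all arrays, among them Cpa3 and Fcer1a. Kit, a growth factor receptor gene, reached it on 5, with 6.28 in CF with Ccrl2+ and 7.96 with Ccrl2-, against 8.8 in PBS, and Mcpt4, a mast cell protease gene, on the 3 CM arrays, at 6.59 to 7.13. In CF with Ccrl2- over PBS 10057 of the 19505 genes were past the floor. Markers below it therefore do not show that a cell type was absent. Which cells of the fibroblast culture carried Il1a and Il1b was not tested.

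**Figure D5:**
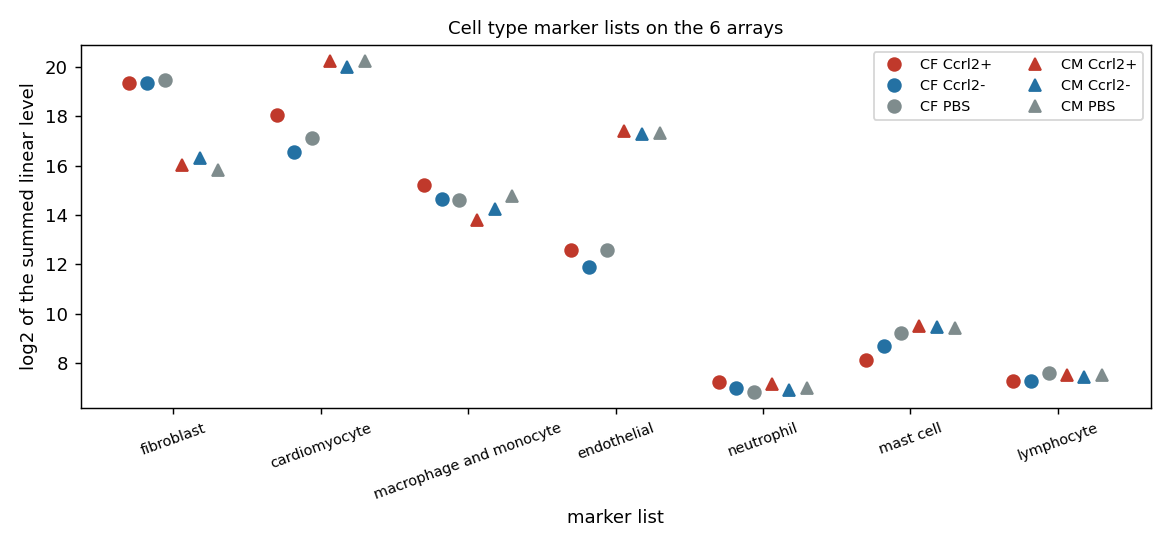
Summed level (log2 of the sum of linear values) of the marker genes of 7 cell types on the 6 arrays, circles for CF and triangles for CM. Macrophage markers span 13.79 to 15.22 over the arrays, and the neutrophil and lymphocyte sums reach at most 7.6.

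The genes whose profile over the 6 arrays was most like that of Il1rap, the receptor gene of widest range (3.17 units), were listed by the root mean square difference of centred log2 profiles, as a description of 6 arrays. They were Ces2g (0.16), Gfpt2 (0.22), Tmem176a (0.23), Fam20c (0.23) and Emilin1 (0.25). All 5 were lower in CM than in CF on every array, with Gfpt2, an enzyme gene of hexosamine synthesis, at 14.28 in CF with Ccrl2+ and 15.06 with Ccrl2-, against 13.25 in PBS, and between 11.74 and 12.26 in CM.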

How the data were processed

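Biotin-labelled cRNA from total RNA of 6 cultures was measured on Affymetrix arrays, per the labels' protocols. The submitters' processing notes name Affymetrix Expression Console, and the deposited values are on the log2 scale, as read from their range. The sources used here do not state its version, the summary method, the build or the annotation. The sorted values of the 6 arrays differ by at most 0.3, so the arrays had nearly 1 distribution when deposited, and a common shift of most genes cannot be detected. The platform annotation named 19572 of 28846 probe sets with 1 symbol, leaving 19505 genes after keeping the probe set with the highest mean per symbol.

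For each comparison one array's log2 values were subtracted from the other's, and calls used the floor and the 2-fold threshold over the whole table. With 1 array per group no test was made, and the small number of arrays limits precision. The members and gene lists were chosen with earlier results of these data known. Named were all members, some of the 4 listed genes with the largest differences per list and comparison, and the 5 genes most like the receptor of widest range. No such genes are given for the ligand, Il1a, because 5 of its 6 values lay below the floor. Other names were chosen after their values were seen, in the comparisons where they are not among the 4 largest. These were markers of cell types, Casp1, Pycard, Csf2, Il6, Ptgs2, Rela, Fkbp5, Mt2, Cebpd and Il1r2's neighbours. Alternatives were other fold thresholds and floors, quantile normalization, removal of an intensity trend (loess, span 0.4), the mean of probe sets and raising values to the floor. Calling was tried on simulated arrays with known changes. Their noise came from the CM secretome arrays, and the changed genes lay well above the floor. The wider spread between CF arrays and changes in faint genes were not simulated. RefSeq promoter windows were found for all 10 members. Python 3.11.15, numpy 2.4.6, pandas 2.3.3, statsmodels 0.14.6 and matplotlib 3.10.9 were used.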

Additional observations from a re-analysis of the deposited data

Results flagged for a closer look

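Among differences past the floor in both cell types, 3 had opposite signs in CF and CM. With 1 array per group the gap between cell types was not tested, and none of the values behind them reached the 95th percentile of the negative controls. The Il18bp difference of Ccrl2- over PBS was 1.72 in CF (1.17 with the PBS value raised to the floor) and -0.87 in CM, a gap of 2.59 between the cell types. For Ccrl2+ over Ccrl2- the Il18bp difference was -1.42 in CF (-1.17 with the Ccrl2+ value raised to the floor) and 0.51 in CM, a gap of -1.93. Both Il18bp gaps use a CF value below the floor, so their size is not measured. For the same comparison the Il18 difference was 0.83 in CF and -0.36 in CM, a gap of 1.19. All 3 use the Ccrl2- arrays.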

How the results depend on the processing

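No paired analysis was possible because each group had 1 array, and for the same reason no array could be left out of a group. Quantile normalization on top and loess trend removal left each of the 37 member differences past the floor within 0.12 and on the same side of 2-fold. The arrays had nearly 1 distribution when deposited, so quantile normalization could move little. The mean of probe sets could change nothing, because each member had 1 probe set. Raising values to the floor changed 12 of them, by 0.25 to 3.09, and 2 of these fell short of 2-fold: Il33 for CF Ccrl2+ over PBS (-0.66) and for CF over CM in PBS (0.66). Counts of members at 2-fold depended on the floor and the fold. For CF Ccrl2+ over PBS 2 members were called, against 0 at 3-fold, and 1 with the floor at the 75th percentile of named values (10.14), at the 95th percentile of negative controls, or with values raised to the floor. For CF Ccrl2+ over Ccrl2- 5 were called, and 2, Il1a and Il1b, with either higher floor. For CM Ccrl2+ over PBS the single call, Il18, was lost (0) at 3-fold and with either higher floor. For CM Ccrl2- over PBS 0 were called, against 2 at 1.5-fold and 1, Il1a, with no floor. For CF over CM in PBS 4 were called, and 2, Il1r1 and Il1rap, with either higher floor. Each change follows from the alternative's own threshold. For CF Ccrl2- over PBS the count of 6 ranged from 4 to 8, and Il1a and Il1b were called under all 9 alternatives. The 1.5-fold threshold, no floor and the mean of probe sets could not have lost a call. Signals of Il1rn, Il33, Il18 and Il18bp did not exceed the negative controls' 95th percentile on any array, which limits what their differences show.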
